A study of Mus musculus with 10 samples.

Results

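The genes of fatty acid oxidation and acyl-CoA handling were followed in regulatory T (Treg) cells, a class of CD4 T cells that depends on the factor Foxp3 and holds immune responses in check. The members were 34 listed genes, each taken by its symbol on the array, and 31 of them were measured among 22180 genes in all. Cpt1b and Acsl3 were represented only on probe sets that name several genes, and Acsl1 was not analysed here. Crat had 2 probe sets, of which the one with the higher mean was used, and each other member had 1.

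The cells were purified by sorting from mice made as mixed bone marrow chimeras, whose blood cells derive from donor marrow of more than 1 genotype, and were lysed without culture. The groups were 5 wild type (WT) samples and 5 LKB1-deficient samples, titled Stk11 deletion, each on its own array. Stk11 encodes LKB1, the kinase that activates AMPK and related kinases. All samples, WT included, came from chimeras. The Cre driver, the deleted exons, the age of the mice, the number of animals behind a sample and whether cells of both genotypes came from the same chimera are all unstated in the sources read. No label tells whether samples were taken from different animals. The p-values therefore reflect sample-to-sample spread alone, and that spread could be technical.

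Before a fatty acid can be burned it is joined to coenzyme A by an acyl-CoA synthetase and passed through the mitochondrial membranes as a carnitine ester. Inside, each turn of beta-oxidation runs through an acyl-CoA dehydrogenase, an enoyl-CoA hydratase, a hydroxyacyl-CoA dehydrogenase and a thiolase, which releases acetyl-CoA, and the dehydrogenase passes its electrons through the electron transfer flavoprotein to the respiratory chain. Peroxisomes shorten very long and branched chains with their own enzymes. AMPK, a target of LKB1, inhibits acetyl-CoA carboxylase and so lowers malonyl-CoA, the inhibitor of carnitine palmitoyltransferase, a control that acts on proteins and is not read by a transcript array. The comparison addresses which transcripts of this pathway differ between LKB1-deficient and WT Treg samples.

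Values are log2 signals of the deposited table, and a difference is LKB1-deficient minus WT on that scale. A call required p under 0.05 after Benjamini-Hochberg adjustment across the 22180 genes in limma, a linear model with variances moderated across genes. The median signal of an array was 4.83 to 4.86 on WT and 4.88 to 4.94 on LKB1-deficient arrays. Stk11 was at 6.61, 6.69, 6.75, 6.95 and 6.92 on WT arrays 1 to 5 and at 6.57, 6.01, 6.05, 6.71 and 6.78 on LKB1-deficient arrays 1 to 5, so the groups overlapped (difference -0.36, adjusted p = 0.335). Which part of Stk11 is deleted and where its probes lie are unknown here, so this does not check the labels, and the groups are those the labels give. The sample descriptions carry running codes, in which replicates 1 to 3 of both groups have codes 1 to 6 and replicates 4 and 5 have codes 7 to 10, and their meaning is not given. Foxp3 was at 10.95 to 11.19 on WT arrays, on LKB1-deficient arrays at 9.86 for array 1 and 11.10 to 11.50 for the rest, and Cd4 was at 9.86 to 10.25 on all 10 arrays.

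Markers of other cells were high on some LKB1-deficient arrays. All 15 measured markers of monocytes, macrophages and dendritic cells had a positive difference and 0 passed the limma test (6 had an unadjusted p under 0.05). Their mean was 6.57 to 6.96 on WT arrays, 7.22, 6.63 and 6.90 on LKB1-deficient arrays 1, 2 and 3 and 9.38 and 9.46 on arrays 4 and 5, with Spic, a factor of red pulp macrophages, at 9.45 and 9.94 there. Of the 15, 3 (Lyz2, Itgam and Itgax) were above every WT array on all 5 LKB1-deficient arrays, beside 0.996% of all genes. The 9 measured B and plasma cell markers, none of them called (3 at an unadjusted p under 0.05), had a mean of 6.69, 6.10 and 6.25 on LKB1-deficient arrays 1, 4 and 5, of 5.21 and 5.28 on arrays 2 and 3, and of 4.98 to 5.45 on WT arrays. Of the 8 natural killer cell markers (mean 6.22 on LKB1-deficient array 1 and 5.39 to 5.80 on all others) 1 rose, Klrd1, and 1 fell, Nkg7, and of the 2 CD8 T cell markers Cd8a rose. The mean of the CD8 T cell list was 7.18, 6.97, 6.88, 6.98 and 6.92 on LKB1-deficient arrays 1 to 5. Each, arrays 2 and 3 included, was above every WT array (6.38 to 6.71). Cd8b1, the other gene of that list, was at 7.67 to 7.86 on LKB1-deficient arrays, within the WT range of 7.50 to 8.05. Its difference was 0.08 (limma adjusted p = 0.790), so the higher list mean rested on Cd8a. The neutrophil list mean was 6.54, 4.58, 5.23, 5.84 and 5.79 on LKB1-deficient arrays 1 to 5, with WT arrays at 4.88 to 5.22. Its largest difference was that of S100a8, which was not called. The 2 measured erythroid and platelet markers, with Itga2b the larger difference, averaged 5.27 to 5.57 everywhere except LKB1-deficient arrays 4 and 5 (6.26 and 6.08). Jchain led the B and plasma cell list, with the same arrays at 8.31 and 9.10 and the others at 4.51 to 6.34. The 9 measured Treg and T cell markers, of which Tnfrsf18 differed most, had a mean of 9.95 on LKB1-deficient array 1, below every other array (10.36 to 10.70). The table has no detection calls, so none of these markers can be called absent. LKB1-deficient arrays 1, 4 and 5 are therefore named beside each result below that rests on them. Lyz2, Itgam, Itgax, Klrd1 and Cd8a were above every WT array on LKB1-deficient arrays 2 and 3 as well. A fit without arrays 1, 4 and 5 thus keeps these marker differences.

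**Figure D1:**
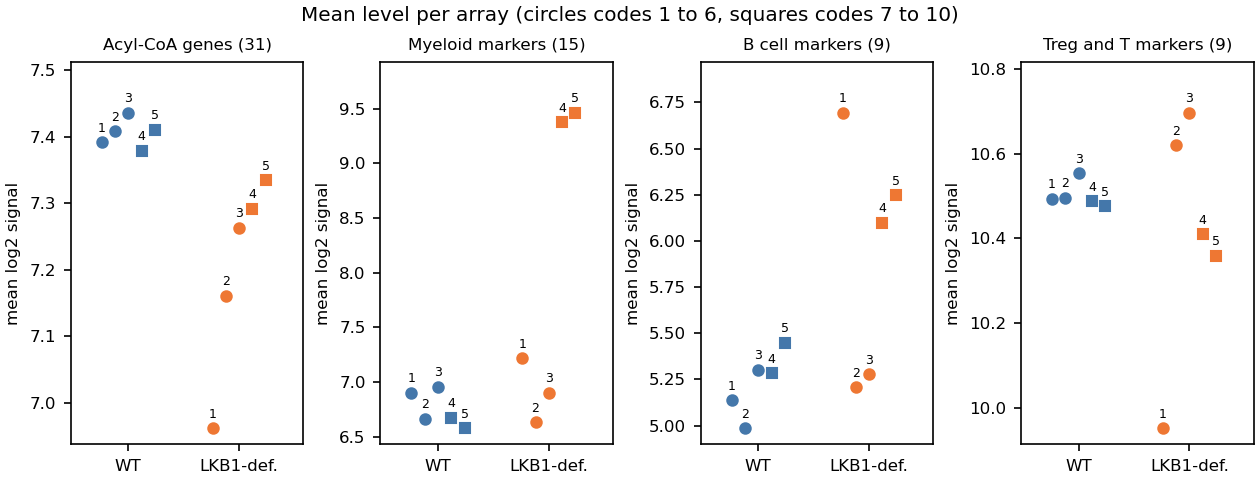
Mean log2 signal per array (y axis) of the 31 oxidation and acyl-CoA genes and of 3 marker lists, by group (x axis), each point 1 array with its replicate number. The oxidation genes were lowest on LKB1-deficient array 1 (6.96), the myeloid markers highest on arrays 4 and 5 (9.38 and 9.46), and the B cell markers highest on array 1 (6.69).

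Eci1 and Hadh, both of the mitochondrial matrix steps of beta-oxidation, were lower in the LKB1-deficient samples. Of the 31 members 2 fell, 0 rose and 29 did not pass, beside 0.83% of all genes that fell and 0.234% that rose (1.06% in either direction). The fitted difference was negative for 24 members and positive for 7, with a median of -0.21, whereas over all genes 49.2% were negative with a median of 0.0034. At an unadjusted p under 0.05, 12 members were lower and 1 was higher, where all genes gave 8.8% and 5.19%. In 5 members every LKB1-deficient array lay below every WT array (3.71% of all genes), and in 1 every LKB1-deficient array lay above (0.996%).

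**Figure D2:**
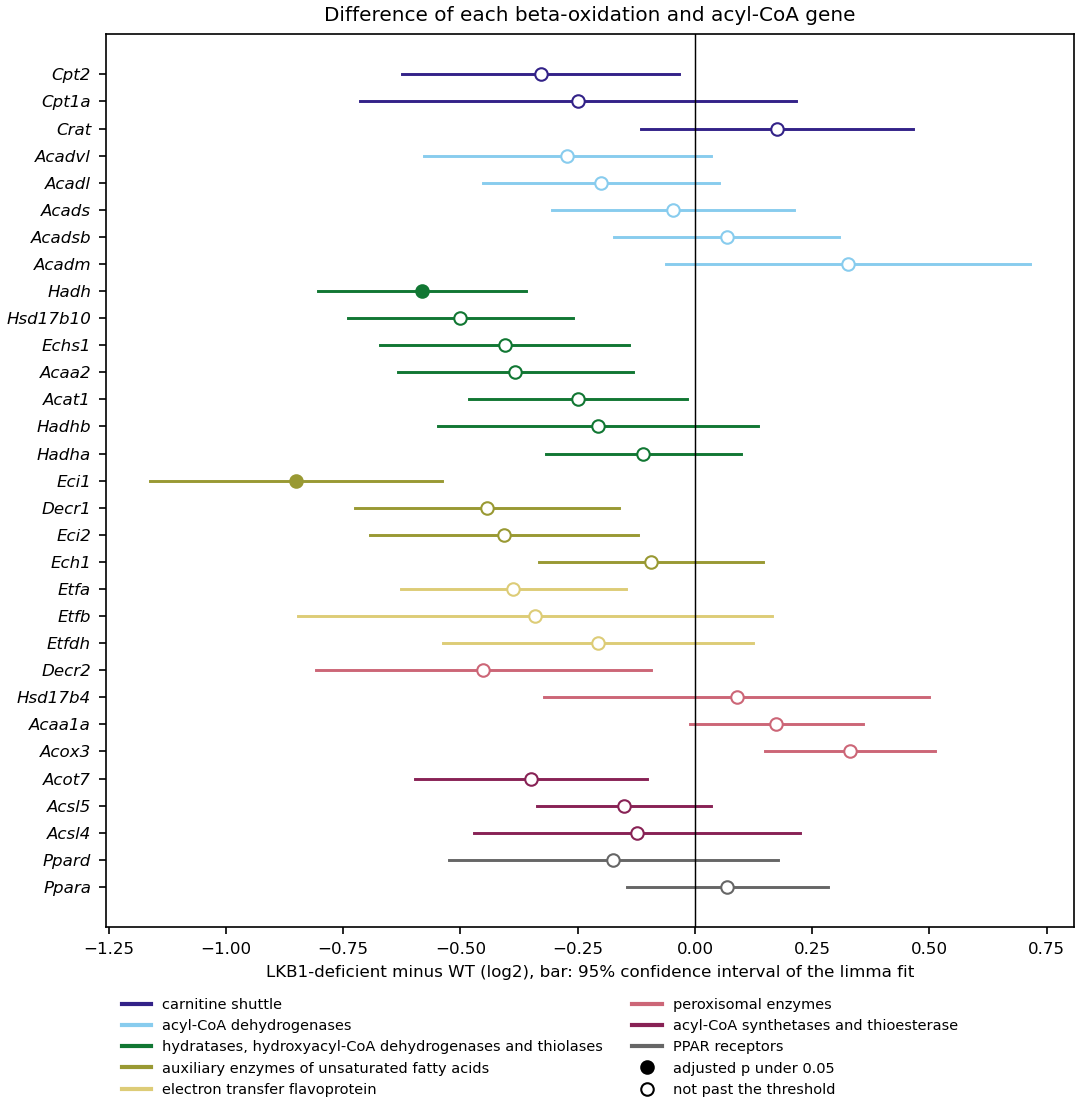
LKB1-deficient minus WT difference of each of the 31 genes (x axis, log2) with its 95% confidence interval, 1 gene per line, coloured by role. Filled points mark adjusted p under 0.05, reached by Eci1 (-0.85) and Hadh (-0.58). The lines of the mitochondrial hydratase, dehydrogenase and thiolase group all lie left of 0 at their point, from -0.58 to -0.11.

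Eci1, the mitochondrial enoyl-CoA isomerase that moves double bonds so that unsaturated fatty acids can enter the cycle, changed most. It was at 7.42, 7.57, 7.58, 7.57 and 7.60 on WT arrays 1 to 5 and at 6.35, 6.34, 6.77, 6.96 and 7.07 on LKB1-deficient arrays 1 to 5. The groups did not overlap, and the lowest LKB1-deficient arrays were 1 and 2. The mean went from 7.55 ± 0.07 (SD, n = 5) to 6.70 ± 0.34 (SD, n = 5), which is 1.80-fold lower (log2 difference -0.85, SE 0.14, 95% confidence interval -1.16 to -0.54, limma adjusted p = 0.0192). Among replicates 1 to 3 the difference was -1.04 and among replicates 4 and 5 it was -0.57. Leaving out LKB1-deficient arrays 1, 4 and 5 gave -0.995 (adjusted p = 0.0079), and with the myeloid and B cell marker means as covariates -1.02 (adjusted p = 0.0050). Arrays 4 and 5 held the highest Eci1 values of the group, and the omitted arrays together lay above its mean, so the larger size without them follows from their omission. The part of other cells was not tested. Eci1 was the 1 member called in each of these fits, beside 0.915% of all genes lower and 0.694% higher in the first and 0.848% and 0.523% in the second. The call ended without WT array 2 (adjusted p = 0.0541), 3 (0.0648), 4 (0.0643) or 5 (0.0531), and over all alternatives the adjusted p ran from 0.0050 to 0.133 with no change of sign.

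Hadh, which encodes the hydroxyacyl-CoA dehydrogenase of medium and short chains, was the other gene that fell. WT arrays 1 to 5 were at 8.62, 8.72, 8.76, 8.66 and 8.63 and LKB1-deficient arrays 1 to 5 at 7.97, 8.35, 8.26, 7.93 and 7.96. All 5 LKB1-deficient arrays lay below all WT arrays, with arrays 1, 4 and 5 the lowest. The mean went from 8.68 ± 0.06 (SD, n = 5) to 8.09 ± 0.20 (SD, n = 5), 1.50-fold lower (log2 difference -0.58, SE 0.10, 95% confidence interval -0.80 to -0.36, adjusted p = 0.0235). The difference was -0.51 among replicates 1 to 3 and -0.70 among replicates 4 and 5. Arrays 1, 4 and 5, the highest for B cell markers, were also the lowest for Hadh, and leaving them out had to shrink the difference, to -0.37 (adjusted p = 0.116). With the marker means as covariates it was -0.38 (adjusted p = 0.116). The call also ended without any single WT array (adjusted p = 0.0531 to 0.0823) and without LKB1-deficient array 4 (0.0583), and the adjusted p over all alternatives ran from 0.0108 to 0.305 with the sign kept.

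**Figure D3:**
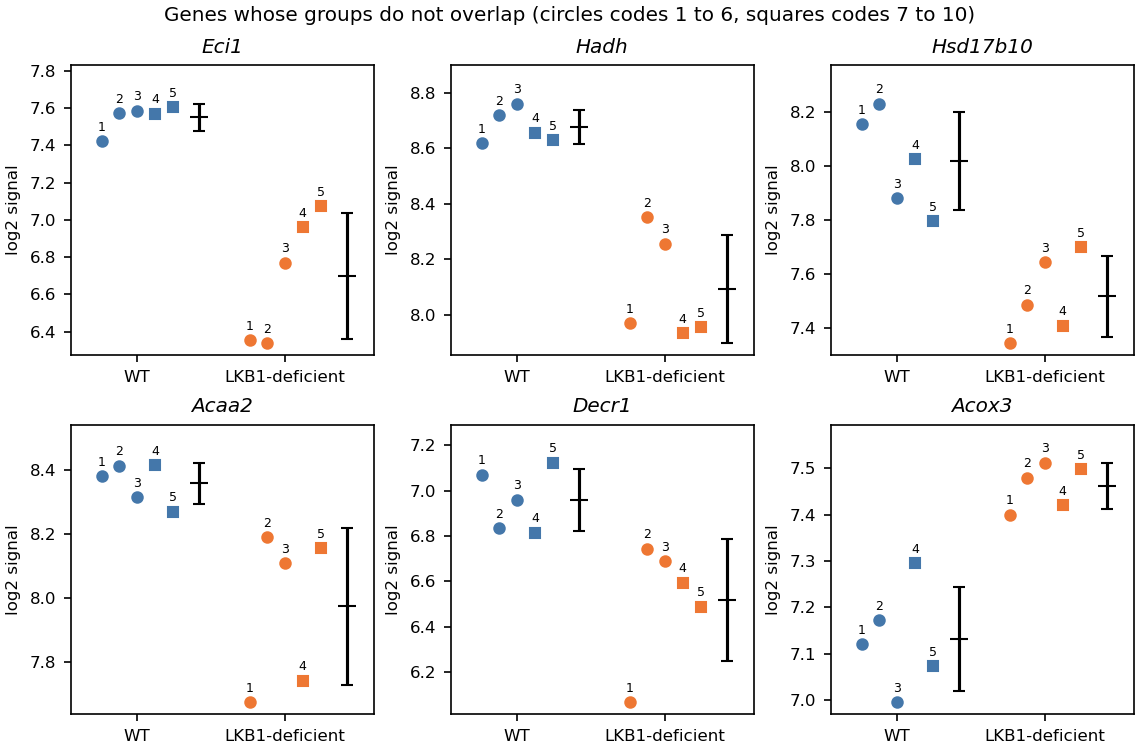
Log2 signal (y axis) of the 6 genes whose groups do not overlap, each point 1 array with its replicate number, and the mean with its SD beside each group. In Hadh arrays 1, 4 and 5 are the lowest of the LKB1-deficient group (7.97, 7.93 and 7.96), in Eci1 arrays 1 and 2 (6.35 and 6.34), and in Acox3 all LKB1-deficient arrays (7.40 to 7.51) lie above WT (6.995 to 7.30).

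The stretches of 250 bases before the annotated start of Eci1, Hadh, Hsd17b10 and Acox3 are shown because these genes had the clearest separation of groups with a sequence at hand, the first 3 downward and Acox3 upward. They are RefSeq promoters of GRCm38.p6, a build used for sequence only, since none is given for the array. Eci1 lies at chr17:24426433-24426682 (plus strand), Hadh at chr3:131272102-131272351 (minus strand), Hsd17b10 at chrX:152001646-152001895 (plus strand) and Acox3 at chr5:35582784-35583033 (plus strand). Capitals mark matches to the motifs named after the sequences, on either strand.
Eci1: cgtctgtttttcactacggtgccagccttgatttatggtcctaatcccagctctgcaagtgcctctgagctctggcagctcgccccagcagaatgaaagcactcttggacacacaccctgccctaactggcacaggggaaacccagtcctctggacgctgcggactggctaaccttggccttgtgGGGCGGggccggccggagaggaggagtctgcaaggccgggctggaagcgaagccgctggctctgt
Hadh: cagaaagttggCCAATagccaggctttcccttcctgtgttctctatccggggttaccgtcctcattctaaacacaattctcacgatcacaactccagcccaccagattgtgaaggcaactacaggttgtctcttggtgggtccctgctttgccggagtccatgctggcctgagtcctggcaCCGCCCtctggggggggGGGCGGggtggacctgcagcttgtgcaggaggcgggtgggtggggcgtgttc
Hsd17b10: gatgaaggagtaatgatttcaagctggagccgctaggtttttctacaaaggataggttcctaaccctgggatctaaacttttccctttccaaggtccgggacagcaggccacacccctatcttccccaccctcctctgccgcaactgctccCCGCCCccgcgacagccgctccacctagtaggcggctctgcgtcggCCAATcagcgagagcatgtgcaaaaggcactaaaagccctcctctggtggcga
Acox3: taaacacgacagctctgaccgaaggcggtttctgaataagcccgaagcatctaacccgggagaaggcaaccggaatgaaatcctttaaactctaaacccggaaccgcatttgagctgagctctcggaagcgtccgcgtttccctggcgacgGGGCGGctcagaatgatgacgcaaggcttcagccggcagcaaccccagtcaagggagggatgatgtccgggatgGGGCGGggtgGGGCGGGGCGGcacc

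The GC box, GGGCGG, was found in all 4 sequences shown, in 20 of the 26 member promoters of the RefSeq table (76.9%) and in 32.7% of all 32851 promoters there. Members were counted with a single promoter per gene, whereas all promoters were taken as listed. The 4 sequences shown are 57.2% to 61.2% GC, beside a median of 52.4% over all promoters. Base composition was not matched, so these shares are no test of enrichment. The letters CCAAT were found in Hadh and Hsd17b10, in 10 of the 26 (38.5%) and in 33.8% of all. The ETS motif, searched as CCGGAAG, was found in Cpt2 alone among members (6.91% of all promoters). The E-box of Myc and related factors, searched as CACGTG, was in 0 of the 26 (6.02% of all), as was the cyclic AMP response element, searched as TGACGTCA (1.55%). The motif of estrogen-related receptors, searched as TCAAGGTCA, was also in 0 of the 26 (0.387% of all). The palindrome of NRF1, a factor of mitochondrial genes, was in Etfdh and Ppara (0.782% of all), and the PPAR direct repeat, whose half-site overlaps the estrogen-related receptor motif, was in 0 of the 26 (0.0335% of all). The absences say only that the letters are not in these 250 bases, and a match is a description of the sequence and not of binding. In Acox3 the last 2 GC boxes overlap.

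Estimates for the listed mitochondrial enzymes that act after the acyl-CoA dehydrogenase shared a sign. The peroxisomal Hsd17b4 (0.09) and Acaa1a (0.17), listed apart, act at the same steps and had positive estimates. All 7 measured genes of the mitochondrial hydratase, hydroxyacyl-CoA dehydrogenase and thiolase list had estimates below 0, their median being -0.38. Of them 1 was called (Hadh), 5 had an unadjusted p under 0.05 and 3 had no overlap. For this group and those below, all genes gave 0.83% called lower, 8.8% lower at an unadjusted p under 0.05 and 3.71% without overlap downward. The upward shares were 0.234%, 5.19% and 0.996%. Hsd17b10 encodes a mitochondrial hydroxyacyl-CoA dehydrogenase that also oxidises steroids and belongs to mitochondrial ribonuclease P. It was at 8.15, 8.23, 7.88, 8.02 and 7.80 on WT arrays 1 to 5 and at 7.35, 7.49, 7.64, 7.41 and 7.70 on LKB1-deficient arrays 1 to 5. Every LKB1-deficient array lay below every WT array, and the difference of -0.50 (SE 0.11) missed the threshold (adjusted p = 0.0531). It passed with array medians subtracted (-0.55, adjusted p = 0.0353), with the dimmest genes removed (0.0352) and with a trended prior (0.0363).

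Acaa2, the thiolase that ends a turn for medium and short chains, was at 8.38, 8.41, 8.31, 8.41 and 8.27 on WT arrays and at 7.68, 8.19, 8.11, 7.74 and 8.16 on LKB1-deficient arrays 1 to 5. The groups did not overlap, with LKB1-deficient arrays 1 and 4 well below the other 3, and the difference of -0.38 did not pass (adjusted p = 0.146). Echs1, the short-chain enoyl-CoA hydratase, was at 6.35, 6.47, 6.79, 6.69 and 6.60 on LKB1-deficient arrays 1 to 5 against 6.74 to 7.28 on WT arrays, where only array 3 reached the WT range (-0.41, adjusted p = 0.146). Acat1, a thiolase of acetoacetyl-CoA, had 4 LKB1-deficient arrays below all WT arrays and a difference of -0.25 (adjusted p = 0.319). Hadha and Hadhb encode the alpha and beta chains of the membrane-bound trifunctional protein, which carries out these steps for long chains. Hadha was at 9.13 to 9.26 on WT and 8.88 to 9.27 on LKB1-deficient arrays (difference -0.11, 95% confidence interval -0.32 to 0.10, adjusted p = 0.663). Hadhb was at 4.91 to 5.38 and 4.502 to 5.43 (-0.21, 95% confidence interval -0.55 to 0.13, adjusted p = 0.610). Thus the chains of the trifunctional protein overlapped between groups while Hadh, Hsd17b10 and Acaa2 did not. The difference between these genes was not tested. By mean signal Hadhb stood at percentile 51.0 of all genes and Hadha at 95.3, and how well the Hadhb probe set reads its transcript was not tested.

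The auxiliary enzymes of unsaturated chains had 4 of 4 negative estimates, 1 call (Eci1), 3 members at an unadjusted p under 0.05 and a median of -0.43. Decr1, the mitochondrial dienoyl-CoA reductase, was at 7.07, 6.83, 6.96, 6.82 and 7.12 on WT arrays and at 6.07, 6.74, 6.69, 6.59 and 6.49 on LKB1-deficient arrays 1 to 5. No LKB1-deficient array reached the WT range, array 1 was far below the others, and the difference was -0.44 (adjusted p = 0.137). Eci2, an isomerase of both mitochondria and peroxisomes, was at 6.15 to 6.75 on LKB1-deficient arrays and 6.64 to 7.05 on WT arrays (-0.41, adjusted p = 0.174). Ech1, a dienoyl-CoA isomerase, was at 8.62, 8.62, 8.79, 8.92 and 9.15 on LKB1-deficient arrays 1 to 5, with arrays 1 to 3 below and array 5 above the WT range of 8.86 to 9.03, and its difference was -0.09 (95% confidence interval -0.33 to 0.15, adjusted p = 0.764).

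**Figure D4:**
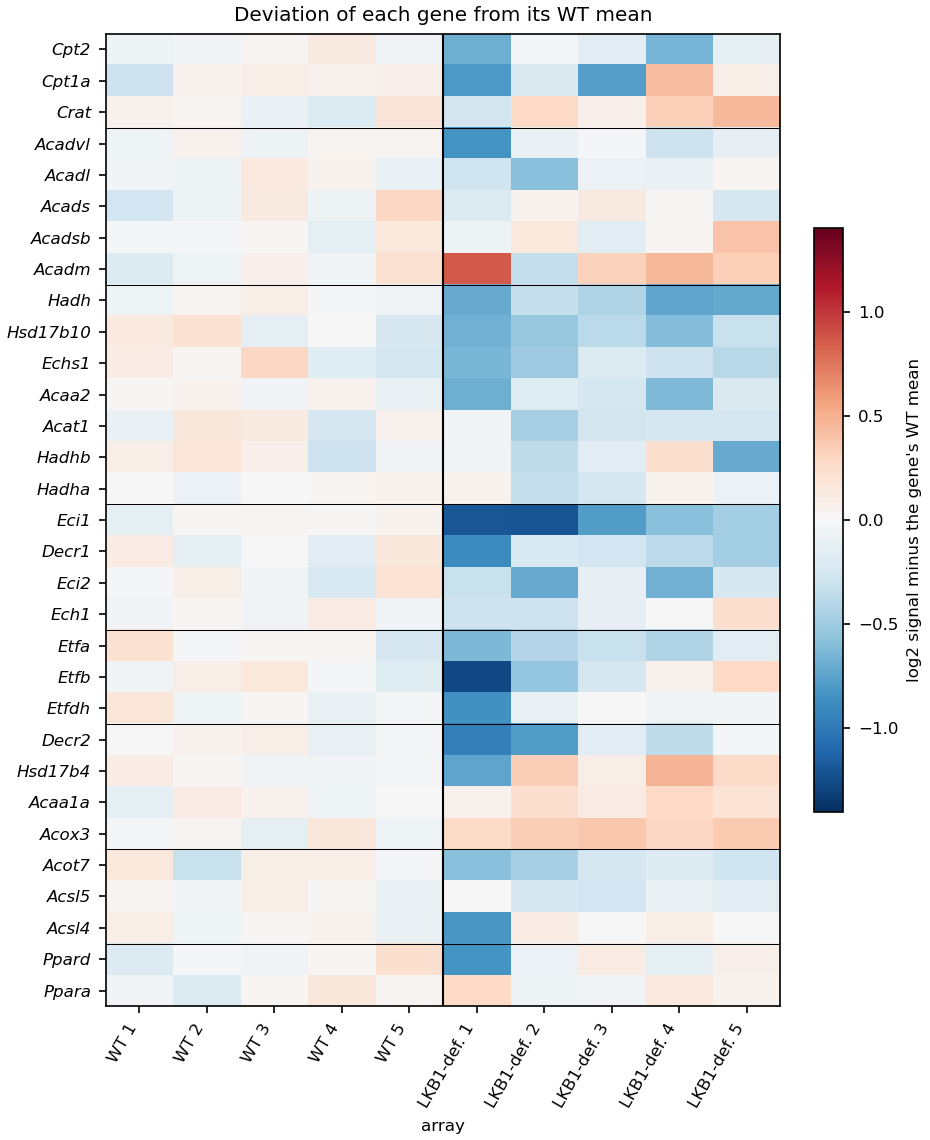
Deviation of each gene (rows, grouped by role) from its mean over the 5 WT arrays, in log2 units, on each of the 10 arrays (columns). LKB1-deficient array 1 has the deepest blue column, with a median deviation of -0.63 over the 31 genes, while Acox3 is red on all 5 LKB1-deficient arrays.

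The electron transfer flavoprotein, which takes electrons from the acyl-CoA dehydrogenases, had 3 of 3 negative estimates, 0 calls in limma (1 at an unadjusted p under 0.05) and a median of -0.34. Etfa, its alpha chain, was at 8.36, 8.57, 8.67, 8.57 and 8.83 on LKB1-deficient arrays 1 to 5 and at 8.76 to 9.20 on WT arrays, so that only array 5 reached the WT range (-0.39, SE 0.11, adjusted p = 0.128). Etfb, the beta chain, was at 7.64, 8.36, 8.67, 8.97 and 9.18 on LKB1-deficient arrays 1 to 5 and at 8.73 to 9.05 on WT arrays. Its arrays 1 to 3 lay below the WT range, array 4 within it and array 5 above it. The difference was -0.75 among replicates 1 to 3 and 0.27 among replicates 4 and 5, and over all arrays -0.34 (adjusted p = 0.561). The test of the difference between the runs of codes gave 1.01 (unadjusted p = 0.0136, adjusted p = 0.386). Etfdh, the ubiquinone reductase that accepts these electrons, was at 7.18 on LKB1-deficient array 1, the remaining 4 being at 7.92 to 8.01, with WT arrays at 7.91 to 8.19 (-0.21, adjusted p = 0.597).

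Acyl-CoA dehydrogenases, which open each turn, showed no shared direction. None of the 5 was called in limma and none had an unadjusted p under 0.05, with 3 negative and 2 positive estimates and a median of -0.05. Acadm, the medium-chain enzyme, was at 7.62, 7.74, 7.88, 7.77 and 8.02 on WT arrays and at 8.67, 7.47, 8.13, 8.26 and 8.14 on LKB1-deficient arrays 1 to 5. It exceeded the WT range on arrays 1, 3, 4 and 5 and lay under it on array 2 (difference 0.33, 95% confidence interval -0.06 to 0.71, adjusted p = 0.454). Arrays 1, 4 and 5 were its highest of the group, so leaving them out had to lower the difference, to -0.01, and with the marker means as covariates it was -0.02. Acadvl, the very-long-chain enzyme, stood at 6.72 on LKB1-deficient array 1 but 7.27 to 7.54 on arrays 2 to 5, with WT arrays at 7.50 to 7.62 (-0.27, adjusted p = 0.420). Acadl, the long-chain enzyme, had a difference of -0.20 (adjusted p = 0.484), Acads, the short-chain enzyme, of -0.05 (0.907) and Acadsb, the enzyme of short branched chains, of 0.07 (0.837). The 95% confidence intervals of Acads and Acadsb, -0.30 to 0.21 and -0.17 to 0.31, leave room for changes of either sign.

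Carnitine shuttle genes were not called either (0 of 3 in limma, 1 at an unadjusted p under 0.05). Cpt1a, the outer membrane carnitine palmitoyltransferase that malonyl-CoA inhibits, was at 6.74, 7.09, 7.11, 7.09 and 7.09 on WT arrays and at 6.22, 6.81, 6.26, 7.46 and 7.11 on LKB1-deficient arrays 1 to 5. Its LKB1-deficient arrays 1 and 3 lay below and array 4 above the WT range. The difference was -0.25 (95% confidence interval -0.71 to 0.21, adjusted p = 0.659), with -0.55 among replicates 1 to 3 and 0.20 among replicates 4 and 5, a change of 0.74 between the runs of codes (unadjusted p = 0.0252, adjusted p = 0.507). Cpt2, the inner membrane enzyme that regenerates acyl-CoA, was at 6.24, 6.90, 6.78, 6.28 and 6.80 against 6.86 to 7.06 on WT arrays, where arrays 1 and 4 were the low ones (-0.33, adjusted p = 0.295). Crat, carnitine acetyltransferase, was at 5.41 to 6.12 against 5.48 to 5.84 (0.18, adjusted p = 0.609), and its second probe set gave -0.01.

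The peroxisomal enzymes were split. Acox3, a peroxisomal acyl-CoA oxidase that starts the oxidation of branched chains, was at 7.12, 7.17, 6.995, 7.30 and 7.07 on WT arrays and at 7.40, 7.48, 7.51, 7.42 and 7.50 on LKB1-deficient arrays 1 to 5. All LKB1-deficient arrays lay above all WT arrays with little spread, from 7.13 ± 0.11 (SD, n = 5) to 7.46 ± 0.05 (SD, n = 5), a difference of 0.33 (SE 0.08) that did not pass (adjusted p = 0.0866). It was 0.37 among replicates 1 to 3 and 0.28 among replicates 4 and 5, and 0.36 without LKB1-deficient arrays 1, 4 and 5. Acaa1a, a peroxisomal thiolase, was at 7.80 to 8.02 against 7.62 to 7.86 on WT arrays (0.17, adjusted p = 0.387). Hsd17b4, the peroxisomal multifunctional enzyme, was at 7.16, 8.24, 7.99, 8.37 and 8.16 on LKB1-deficient arrays 1 to 5 against 7.84 to 8.003, below the WT range on array 1 alone and above it on 3 arrays (0.09, adjusted p = 0.884). Decr2, the peroxisomal dienoyl-CoA reductase, was at 5.77, 5.95, 6.59, 6.38 and 6.71 against 6.62 to 6.82, with 4 arrays below the WT range (-0.45, adjusted p = 0.231). Its difference was -0.67 among replicates 1 to 3 and -0.12 among replicates 4 and 5.

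Among the enzymes that make or split acyl-CoA, 0 of 3 measured genes were called in limma and 1 had an unadjusted p under 0.05. Acot7, a cytosolic thioesterase that hydrolyses long acyl-CoA, was at 6.25 to 6.65 on LKB1-deficient and 6.52 to 6.99 on WT arrays (-0.35, adjusted p = 0.177). Acsl5, a synthetase of mitochondria and endoplasmic reticulum, was at 7.76 to 8.03 against 7.92 to 8.11 (-0.15, adjusted p = 0.468). Acsl4, which prefers arachidonic acid, stood at 6.73 on LKB1-deficient array 1 but 7.56 to 7.65 on arrays 2 to 5, with WT arrays at 7.46 to 7.64 (-0.12, adjusted p = 0.790), and without that array its difference was 0.05.

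The nuclear receptors of fatty acids did not pass (0 of 2, none at an unadjusted p under 0.05). Ppard stood at 5.997 on LKB1-deficient array 1 but 6.68 to 6.92 on arrays 2 to 5, with WT arrays at 6.63 to 7.04 (-0.17, 95% confidence interval -0.53 to 0.18, adjusted p = 0.689). Ppara was at 3.77 to 4.12 on WT and 3.89 to 4.24 on LKB1-deficient arrays, near the lower end of the scale, where signal cannot be told from background (0.07, adjusted p = 0.810).

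The SD of the LKB1-deficient group was above the WT SD in 24 of the 31 genes (77.4%), near the 68.8% of all genes. LKB1-deficient array 1 had the lowest value of all 10 arrays in 16 members and array 2 in 7, while arrays 3, 4 and 5 had it in 2, 1 and 1. The median deviation from the WT mean was -0.63, -0.23, -0.15, -0.09 and -0.08 on LKB1-deficient arrays 1 to 5, and over all genes it lay between -0.03 and 0.01 on these arrays. The members under the WT mean numbered 25, 24, 23, 17 and 18 of 31 on arrays 1 to 5, where 48.3%, 52.6%, 49.1%, 51.9% and 54.5% of all genes were under it. The part of the marker differences given above in these values was not tested. The mean of the 31 genes was 7.38 to 7.44 on WT arrays, while LKB1-deficient arrays 1 to 5 had 6.96, 7.16, 7.26, 7.29 and 7.33. In bulk samples, fewer cells of a type and less RNA per cell cannot be told apart, so these means are those of whatever cells each sample held.

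The runs of codes were also compared. Among replicates 1 to 3 the members had 25 negative differences and a median of -0.30, and among replicates 4 and 5 they had 20 and -0.09, with all genes at 0.01 and -0.03. The test of this difference gene by gene called 0 of the 31 members in limma, beside 1.08% of all genes called. At an unadjusted p under 0.05 there were 2 members, Etfb and Cpt1a, beside 7.96% of all genes, so their number was no greater than the background share. Neither run alone gave a member past the threshold, beside 0% of all genes called in the first run and 0.207% lower and 1.91% higher in the second. At an unadjusted p under 0.05 there were 13 members with replicates 1 to 3, beside 10.1% of all genes, and 4 with replicates 4 and 5, which is about the 13.1% of all genes there.

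**Figure D5:**
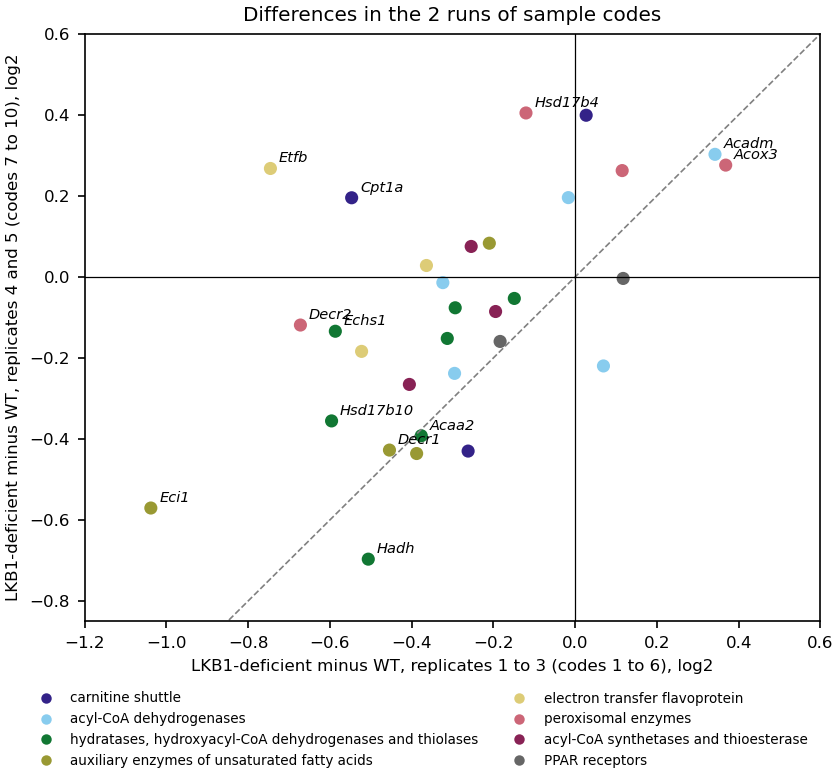
LKB1-deficient minus WT difference of each gene among replicates 1 to 3 (x axis, log2) against that among replicates 4 and 5 (y axis, log2), coloured by role, with the line of equal values dashed. Hadh (-0.51 and -0.70) and Eci1 (-1.04 and -0.57) lie in the lower left and Acox3 (0.37 and 0.28) in the upper right, while Etfb (-0.75 and 0.27) and Cpt1a (-0.55 and 0.20) change sign.

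Of 104 further genes around the pathway, in 8 lists, 95 were measured. In limma 0 were called in either direction, beside 1.06% of all genes. At an unadjusted p under 0.05 there were 16 (16.8%), near the 14.0% of all genes. In 3 of the 95 (Acad10, Acsbg1 and Mlycd) every LKB1-deficient array lay below every WT array, and in 0 above. All genes gave 3.71% and 0.996%, so these separations were no more than the background share. There were 49 negative and 46 positive estimates with a median of -0.01, against 24 and 7 with -0.21 in the members, a contrast that was not tested. Slc22a5, the plasma membrane carnitine transporter, was at 6.46 to 6.99 on LKB1-deficient and 6.91 to 7.45 on WT arrays (-0.50, adjusted p = 0.115), and Slc25a20, the mitochondrial carnitine carrier, had a difference of -0.22 (0.569). Among other acyl-CoA dehydrogenases Acad10 was at 4.30, 5.14, 5.27, 4.79 and 5.07 on LKB1-deficient arrays 1 to 5, all below the WT range of 5.39 to 5.79 (-0.68, adjusted p = 0.0802), and Ivd, of leucine breakdown, was at 0.32 (0.395). Other peroxisomal genes included Amacr, a racemase of branched chains (0.28, adjusted p = 0.255), and Phyh, which starts alpha-oxidation (-0.21, 0.450). Of the other synthetases Acsbg1 had all LKB1-deficient arrays below WT (-0.47, adjusted p = 0.0917), and Acss2, which makes acetyl-CoA from acetate, was at -0.41 (0.167). Hibadh and Mccc2, of branched-chain amino acid breakdown, were at -0.38 (0.207) and -0.36 (0.226).

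PPAR partners and targets had 0 calls in limma in 10 and 11 measured genes (0 and 1 at an unadjusted p under 0.05). Pparg, another PPAR, was at 4.18 to 4.63 on WT arrays and at 4.15 to 4.75 on LKB1-deficient arrays 1 to 3. It was at 6.17 and 6.52 on arrays 4 and 5, the arrays with the highest myeloid markers (0.74, limma adjusted p = 0.426). Ppargc1a, the coactivator of mitochondrial genes, had a difference of 0.17 (adjusted p = 0.635). Of the targets, Fabp3, a fatty acid binding protein, was at -0.28 (0.197) and Cd36, a fatty acid transporter, at 0.75 (0.380), the latter high on LKB1-deficient arrays 1, 4 and 5 (5.27, 4.79 and 5.33 against 3.41 to 4.04 on WT arrays). The part of other cells in these values was not tested.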

How the data were processed

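Transcripts were measured on 10 single-channel arrays of amplified total RNA, labelled with biotin after NuGEN WTA Pico v2 amplification per the labels' protocols. Signals were deposited as log2 values, and RMA and Partek 6.6 were used per the submitters' processing notes, with settings not given in the sources used here. Quantile steps of this kind hide a shift shared by all genes, and amplification of a small input can distort levels. Of 41345 probe sets, 23521 name 1 gene in the platform annotation, 1814 several (not used) and 16010 none. Each gene was represented by its brightest probe set (by mean over arrays), which left 22180 genes, with no filter on level.

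Groups and replicate numbers came from the titles. LKB1-deficient and WT arrays were compared by lmFit and eBayes (limma 3.58.1, R 4.3.3) on all 10 arrays without covariates (4.36 prior degrees of freedom), with Benjamini-Hochberg adjustment over all genes. Precision is limited by the number of arrays. The difference between runs of codes was tested as an interaction term. Alternatives were the mean of probe sets, the dimmest 40% of genes removed, medians subtracted, renewed quantile normalization, a trended robust prior, no moderation, array weights, replicate number or run of codes as a block, each run alone, each array left out, LKB1-deficient arrays 1, 4 and 5 left out, and myeloid and B cell marker means as covariates. Members, lists and alternatives were chosen with earlier results of these data known. Named beside the members were, of each pathway list, called genes and the 2 with the smallest p, and of each marker list its mean and largest difference.

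On simulated data of 22180 genes, 5 against 5 arrays, the code recovered 32% of genes changed by 0.5 (log2), 88% by 1, 100% by 1.5 and 98% by 2, and called 12 of 21980 unchanged genes. Same-numbered samples of the groups did not deviate together (correlations -0.08 to 0.10 over genes).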

Additional observations from a re-analysis of the deposited data

Results flagged for a closer look

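In 5 of 62 groups of 5 arrays, 1 array stood apart from the other 4 by Dixon's test at 95%, which flags about 1 group in 20 by chance. Cpt1a was low on WT array 1, at 6.74 with the next at 7.09, and Eci1 was low on the same array, at 7.42 with the next at 7.57. Etfdh was low on LKB1-deficient array 1, at 7.18 with the next at 7.92. Acsl4 was low on that array too, at 6.73 with the next at 7.56, and so was Ppard, at 5.997 with the next at 6.68. LKB1-deficient array 1 also had the lowest Foxp3 (9.86) and the highest B cell marker mean (6.69) of all arrays, and the part of this in the 3 values was not tested.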

How the results depend on the processing

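The median difference of the members stayed negative throughout, from -0.25 to -0.15 with single arrays left out. The direction of Eci1, Hadh, Hsd17b10 and Acox3 held in all alternatives. The 2 members called lower became 1 without moderation of the variances (Hadh), with the replicate block (Eci1), without LKB1-deficient arrays 1, 4 and 5 (Eci1) and with the marker covariates (Eci1), and 0 with codes 1 to 6 or codes 7 to 10 alone (unadjusted p under 0.05 in 13 and 4 members). They were 0 to 2 with single arrays left out, 0 without WT array 2, 3, 4 or 5 (unadjusted p under 0.05 in 11 to 13). Without moderation 1 member, Acox3, was called higher, otherwise 0. Over all genes the 184 lower and 52 higher calls became 363 and 52 with medians subtracted, 284 and 72 with the dimmest genes removed, 307 and 79 with a trended prior, 132 and 17 without moderation, 329 and 135 with array weights, 36 and 14 with the replicate block, 0 and 0 with codes 1 to 6 (2247 at an unadjusted p under 0.05), 46 and 423 with codes 7 to 10, 203 and 154 without LKB1-deficient arrays 1, 4 and 5, and 188 and 116 with the covariates. With single arrays left out they ran from 30 to 340 lower and from 8 to 180 higher. With the dimmest genes removed 13308 genes were left, 30 members among them. The 284 and 72 calls were 2.13% and 0.541% of these genes. The 0 other pathway genes called lower became 1 with array weights and without LKB1-deficient arrays 1, 4 and 5, and 0 to 1 with single arrays left out. The 0 called higher became 2 in these 2 fits and with the covariates, 6 with codes 7 to 10, and 0 to 2 with single arrays left out. Fits of 1 run or fewer arrays have fewer samples, and the cause of the other moves was not tested.

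Signs turned only in members not called before or after. With codes 1 to 6 they turned in Acads (0.069), Acadsb (-0.017) and Hsd17b4 (-0.12), and with codes 7 to 10 in Cpt1a (0.20), Ech1 (0.083), Etfb (0.27), Etfdh (0.028), Acsl4 (0.075) and Ppara (-0.0040). Without LKB1-deficient arrays 1, 4 and 5 they turned in Acadm (-0.0078), Acads (0.088), Acadsb (-0.0054), Acsl4 (0.051), Ppara (-0.061) and Ppard (0.011), and with the covariates in Acadm (-0.022), Acads (0.059), Acadsb (-0.020), Acsl4 (0.035) and Ppara (-0.072). With single arrays left out the difference ran from -0.11 to 0.026 in Acads, from -0.013 to 0.12 in Acadsb, from -0.0072 to 0.30 in Hsd17b4 and from -0.18 to 0.052 in Acsl4.

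Same-numbered samples share only a number, and WT sample 2 alone correlated best with its own. With the replicate block Eci1 kept its call (-0.85, adjusted p = 0.0487) and Hadh did not pass (-0.58, adjusted p = 0.0700).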

Other observations

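Dgat1 and Dgat2, whose enzymes store fatty acids as triacylglycerol, lay above every WT array on 4 of the 5 LKB1-deficient arrays. Dgat2, a diacylglycerol acyltransferase, stood at 5.18 on LKB1-deficient array 1 but 7.01, 6.41, 6.83 and 6.39 on arrays 2 to 5, with WT arrays at 5.25 to 5.90, and its difference of 0.84 (SE 0.28) was not called in limma (adjusted p = 0.184). Dgat1, named after its values were seen, was at 7.24 and at 8.27, 8.34, 8.23 and 7.95, against 7.37 to 7.60 (0.52, adjusted p = 0.206). Without LKB1-deficient array 1 the differences were 1.14 (adjusted p = 0.0051) and 0.72 (0.0049), and that array was the lowest for both genes, so leaving it out had to enlarge them. With the marker means as covariates they were 1.16 (0.0489) and 0.79 (0.0212). Of all genes, 0.812% were called higher and 1.53% lower once that array was dropped. The covariate fit called 0.523% higher and 0.848% lower, where the fit of all 10 arrays called 0.234% and 0.83%.

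Lpl, lipoprotein lipase, stood at 4.78, 5.33, 5.26, 5.90 and 6.68 on LKB1-deficient arrays 1 to 5, with WT arrays at 4.45 to 4.89 (0.86, adjusted p = 0.174). With codes 7 to 10 alone, which hold only replicates 4 and 5, 6 of the 95 measured pathway genes were called, all higher. Of all genes, 1.91% were called higher and 0.207% lower there. The 6 were Lpl (1.51, limma adjusted p = 0.0468), Pparg (1.75, 0.0035), Fabp4 (1.95, 0.0077), Cd36 (1.34, 0.0252), Plin2 (1.05, 0.0178) and Rxra (0.94, 0.0281). Myeloid marker means were 9.38 and 9.46 on those LKB1-deficient arrays against 6.67 and 6.57 on the WT arrays. B cell marker means were 6.10 and 6.25 against 5.28 and 5.45. The part of myeloid, B or other cells in these 6 values was not tested.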
